A study of Mus musculus with 48 samples.

Results

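The genes of the SR protein and heterogeneous nuclear ribonucleoprotein (hnRNP) families were described across the day in mouse liver. Members were all genes whose symbol begins with Srsf or Hnrnp and whose mean was at least 1 RPKM (reads normalised by gene length and sequencing depth) in both assays. That gave 28 genes, 9 Srsf and 19 Hnrnp, of the 9445 genes that passed the same minimum. The assays were total RNA sequencing and ribosome profiling, which sequences the mRNA fragments covered by ribosomes (footprints). Livers came from male C57BL/6JRj mice of 11 to 12 weeks, kept for 2 weeks before collection on a light-dark cycle of 12 h each. They were collected under that schedule at 12 zeitgeber times (ZT, hours after lights on), from ZT0 to ZT22. No genotype or treatment other than the time of day set the groups apart. A replicate was the joint lysate of 2 livers, which served both assays, and 2 replicates per time point gave 24 pools and 48 libraries.

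SR proteins carry RNA recognition motifs and a tail rich in arginine and serine. They bind exonic enhancers, help to recruit the U1 particle and U2AF to splice sites, and are controlled by phosphorylation through the CLK and SRPK kinases. The hnRNPs coat nascent transcripts, often oppose SR proteins at regulated exons, and also act on export, stability and translation of mRNA. Many genes of both families regulate their own amount by splicing in an exon, or keeping an intron, that sends the transcript to nonsense-mediated decay. In mouse liver, deletion of Srsf3 in hepatocytes is known to disturb their maturation.

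The annotation (GENCODE M21) held 33 genes with these prefixes, of which 29 were listed in at least 1 assay. Hnrnpa0 was listed in total RNA alone, at a mean of 25.8 RPKM, and was not a member. Srsf1 and Srsf12 were not analysed here. No gene lay near the minimum: the lowest member, Hnrnph3, averaged 4.36 RPKM in total RNA and 6.82 in footprints. All 28 genes entered every test. An annotated nonsense-mediated decay transcript was held by 8 of the 9 SR genes and 10 of the 19 hnRNP genes, together 64.3% of members, against 29.6% of all tested genes with an annotation. A retained intron transcript was annotated for 75% of members and 61.0% of all tested genes. The deposited values give 1 number per gene and do not separate such transcripts from the coding ones.

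Promoters are shown for 4 of the 6 genes with a daily rhythm described next: Srsf5, which had the widest fitted range, the neighbours Hnrnpdl and Hnrnpd, which shared a phase, and Hnrnpc, which had the opposite phase. Each line holds 250 bases before to 50 bases after the RefSeq start on GRCm38.p6, 5′ to 3′ on the gene's strand, with motif matches in capitals. Srsf5 lies at chr12:80945249-80945548 on the plus strand, and the others lie on the minus strand, Hnrnpdl at chr5:100039173-100039472, Hnrnpd at chr5:99978889-99979188 and Hnrnpc at chr14:52103972-52104271.
Srsf5: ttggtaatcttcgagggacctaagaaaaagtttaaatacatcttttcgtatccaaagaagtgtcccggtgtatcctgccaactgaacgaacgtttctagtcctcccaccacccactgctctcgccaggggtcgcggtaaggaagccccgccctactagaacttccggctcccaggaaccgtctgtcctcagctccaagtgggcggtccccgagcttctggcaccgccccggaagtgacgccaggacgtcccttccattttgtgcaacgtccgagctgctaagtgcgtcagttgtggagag
Hnrnpdl: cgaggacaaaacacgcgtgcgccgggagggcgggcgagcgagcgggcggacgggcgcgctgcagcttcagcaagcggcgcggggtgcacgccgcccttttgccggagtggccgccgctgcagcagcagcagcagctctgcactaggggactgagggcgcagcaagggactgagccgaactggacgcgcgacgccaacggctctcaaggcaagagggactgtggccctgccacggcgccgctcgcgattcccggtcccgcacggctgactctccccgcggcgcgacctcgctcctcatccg
Hnrnpd: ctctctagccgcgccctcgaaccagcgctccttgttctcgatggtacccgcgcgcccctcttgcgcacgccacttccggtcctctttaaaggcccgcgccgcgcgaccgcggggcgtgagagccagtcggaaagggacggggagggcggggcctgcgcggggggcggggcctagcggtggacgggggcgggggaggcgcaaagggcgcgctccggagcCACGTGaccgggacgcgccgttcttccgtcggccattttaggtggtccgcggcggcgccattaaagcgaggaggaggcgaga
Hnrnpc: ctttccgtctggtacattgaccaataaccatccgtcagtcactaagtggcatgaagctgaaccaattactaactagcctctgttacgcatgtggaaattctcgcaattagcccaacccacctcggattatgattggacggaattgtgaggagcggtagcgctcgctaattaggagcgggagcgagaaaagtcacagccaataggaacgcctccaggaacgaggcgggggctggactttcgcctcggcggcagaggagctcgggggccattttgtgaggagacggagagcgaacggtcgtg
These windows were searched on both strands for the E-box CACGTG, the D-box TTATGTAA and its variant TTACGTAA, the cyclic AMP response element TGACGTCA and the heat shock element core GAANNTTC. The capitals in Hnrnpd mark an E-box 32 bases before its start, and no match fell in the other 3 windows. Over all 38 windows of the 26 members with a RefSeq promoter, an E-box was present in 5, one each in Hnrnpa3, Hnrnpd, Hnrnpf, Hnrnph2 and Hnrnpm. In all 32851 promoters the E-box share was 7.15%. The heat shock core was present in 5 of the 38 windows, for Hnrnpa2b1, Hnrnpf, Hnrnpl and Srsf9, and in 7.86% of all promoters. The D-box variant was found in 2 of the 38 windows, both of Hnrnpa2b1, and in 0.119% of all promoters. The 2 windows of Hnrnpa2b1 overlap and show the same sites. The D-box (0.938% of all promoters) and the cyclic AMP response element (1.79%) were found for no member. A match is a description of letters in these windows.

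The livers were checked by their markers. All 6 hepatocyte markers were listed and summed to 54813 to 87062 RPKM in total RNA. Kupffer cell markers summed to 249 to 465 RPKM, endothelial markers to 131 to 198 and stellate cell markers to 177 to 319. Erythroid markers summed to 301 to 991 RPKM and cholangiocyte markers to 16.9 to 58.3. Digestive enzyme transcripts of the pancreas summed to 185 to 891 RPKM in total RNA of 6 pools and to 5.78 to 26.9 in the other 18. The 6 were both pools of ZT2, the first of ZT4, the first of ZT6, the second of ZT8 and the second of ZT16. Approximate depth was 13.9 to 43.0 M reads on the listed genes in footprints and 3.87 to 23.7 M in total RNA. It was under 7 M for total RNA of the first pool of ZT14 and both pools of ZT18. In bulk liver, fewer cells of a type and less RNA per cell cannot be told apart.

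The main question of the time course was which transcripts change in amount over the day, and whether ribosome occupancy follows. A gene was called rhythmic where a 24 h cosine fitted with limma had an adjusted p (Benjamini-Hochberg, over all 9445 genes) under 0.05 and the fitted peak stood 1.5-fold or more above the trough. In total RNA, 5 of the 28 members were called (17.9%), against 15.8% of all genes tested. They were Srsf5, Hnrnpdl, Hnrnpd and Hnrnph3, with peaks in the light phase (as 7.76% of all genes), and Hnrnpc, with its peak in the dark (as 8.06%). In footprints 5 members were again called (17.9%, against 16.7% of all genes): Srsf5, Hnrnpdl, Hnrnph3, Hnrnpc and Hnrnpl. Those of Srsf5, Hnrnpdl and Hnrnpl peaked in the light, as 7.60% of all genes did, and those of Hnrnph3 and Hnrnpc in the dark, as 9.05% did. The 4 called in both assays compare with 11.0% of all genes. Both shares of members lay near the background, so the families were not set apart by the number of rhythmic genes, and the results concern the single genes.

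**Figure D1:**
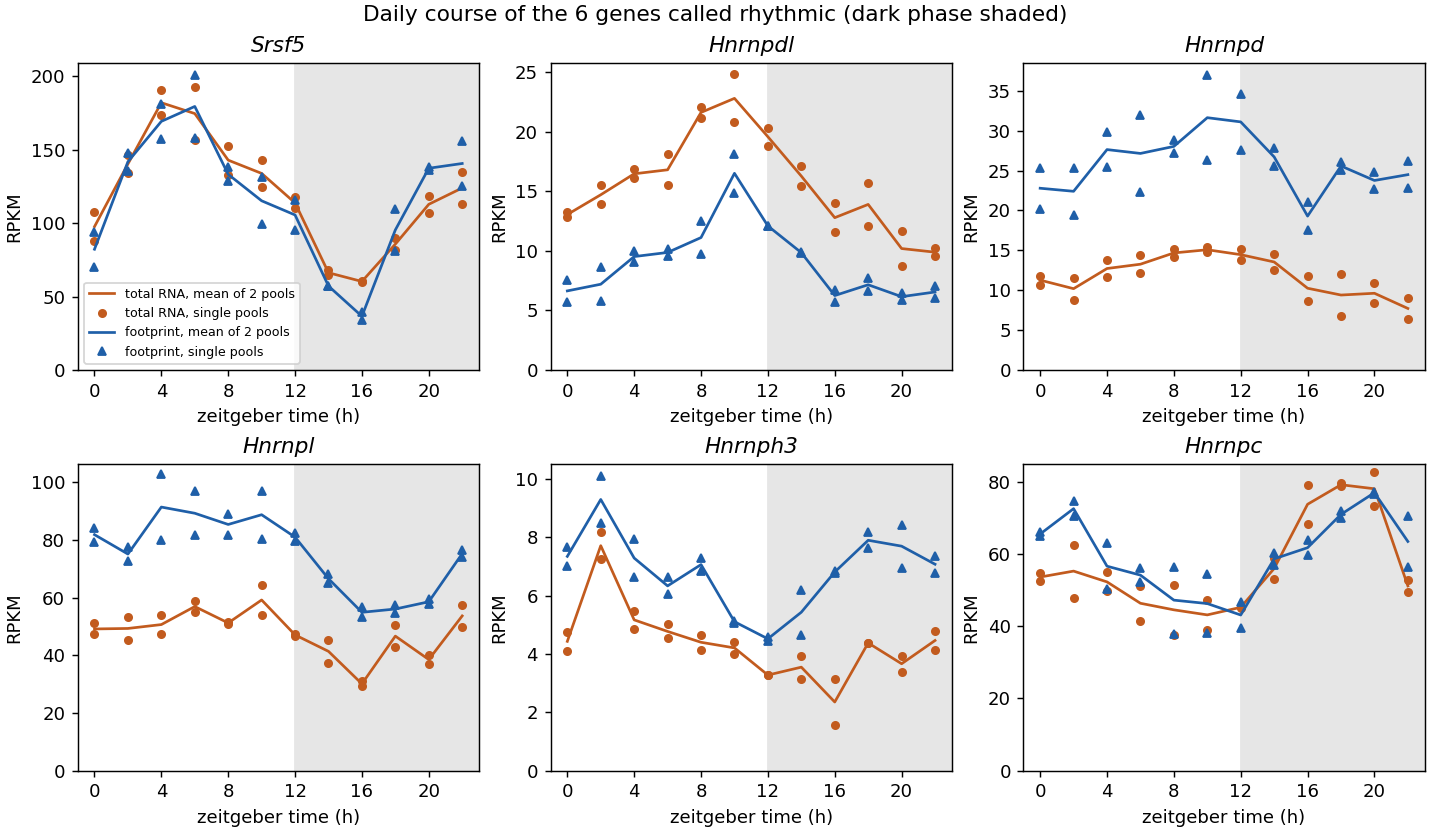
RPKM (vertical axes, linear from 0) against zeitgeber time for the 6 genes called rhythmic in at least 1 assay, with single pools as points, the mean of the 2 pools as lines and the dark phase shaded. Srsf5 fell to 60.0 to 60.8 RPKM in total RNA at ZT16, Hnrnpdl was highest at ZT10 in footprints, and Hnrnpc was high in the dark, with 73.4 to 82.7 RPKM in total RNA at ZT20.

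Srsf5 had the widest fitted daily range of the 28 genes in both assays. By the ratio of the highest to the lowest time point mean, its footprints spanned 4.89-fold and its total RNA 3.02-fold, beside 3.27-fold for total RNA of Hnrnph3. It encodes an SR protein that promotes exon inclusion and is known in rat as a transcript induced in regenerating liver. Total RNA of Srsf5 in pools 1 and 2 was 108 and 87.7 RPKM at ZT0, 146 and 134 at ZT2, 191 and 174 at ZT4, 193 and 157 at ZT6, 133 and 153 at ZT8 and then 125 and 143 at ZT10. In the dark it was 118 and 110.1 RPKM at ZT12, 64.6 and 68.1 at ZT14, 60.8 and 60.0 at ZT16, 81.8 and 89.8 at ZT18, 107 and 119 at ZT20 and then 113 and 135 at ZT22. The 4 pools of ZT4 and ZT6 lay above every other pool, and the 4 pools of ZT14 and ZT16 lay below every other pool. The fitted fold was 2.25 (95% interval 1.8 to 2.8), with the peak at ZT4.63 and a limma adjusted p of 5.5e-06. Its footprints were 94.2 and 70.4 RPKM at ZT0, 136 and 148 at ZT2, 182 and 157 at ZT4, 201 and 158 at ZT6, 128 and 138 at ZT8 and then 99.5 and 131 at ZT10. In the dark they were 116 and 95.3 RPKM at ZT12, 57.0 and 57.5 at ZT14, 33.9 and 39.5 at ZT16, 109.6 and 81.4 at ZT18, 136 and 139 at ZT20 and then 126 and 156 at ZT22. Footprints had the same low point, with the 2 pools of ZT16 below all others, and were back at 136 and 139 RPKM at ZT20, where total RNA stood at 107 and 119. The fitted footprint fold was 2.48 (1.70 to 3.62), with the peak at ZT3.80 and a limma adjusted p of 0.0013. Without the 6 pools holding pancreatic transcripts, 5 of them from the light phase, the Srsf5 footprint fold was 2.10 with a limma adjusted p of 0.072 and the call was lost, whereas in total RNA it was 2.05 (adjusted p = 0.0033). The coding sequence shared 69.7% of its 30-base windows with 1 processed pseudogene, so reads of those windows have no unique place.

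Hnrnpdl and Hnrnpd encode closely related proteins that bind AU-rich RNA; Hnrnpd, also called AUF1, is known for directing AU-rich mRNAs to decay. They are neighbours on chromosome 5 on the same strand, 54.6 kb apart, and both were highest around the end of the light phase. In total RNA, the 2 pools held Hnrnpdl at 13.2 and 12.9 RPKM at ZT0, 13.9 and 15.5 at ZT2, 16.1 and 16.8 at ZT4, 18.1 and 15.5 at ZT6, 21.1 and 22.1 at ZT8 and then 20.8 and 24.8 at ZT10. From ZT12 on, the pools had 20.3 and 18.8 RPKM at ZT12, 15.4 and 17.1 at ZT14, 13.98 and 11.6 at ZT16, 12.1 and 15.7 at ZT18, 8.69 and 11.7 at ZT20 and then 10.2 and 9.55 at ZT22. The 4 pools of ZT8 and ZT10 were the highest of the 24, and the 3 lowest were at ZT20 and ZT22. The fitted fold was 1.98 (1.71 to 2.28), with the peak at ZT9.03 and a limma adjusted p of 1.6e-07. Footprint values of the 2 pools were 7.54 and 5.74 RPKM at ZT0, 5.79 and 8.61 at ZT2, 9.06 and 9.98 at ZT4, 9.61 and 10.1 at ZT6, 9.73 and 12.5 at ZT8 and then 14.9 and 18.1 at ZT10. Later they came to 12.1 and 12.0 RPKM at ZT12, 9.79 and 9.90 at ZT14, 6.75 and 5.75 at ZT16, 6.59 and 7.72 at ZT18, 6.47 and 5.85 at ZT20 and then 7.08 and 6.02 at ZT22. Both pools of ZT10 stood above the other 22. The footprint fold was 2.15 (1.78 to 2.59), with the peak at ZT9.33 and a limma adjusted p of 2.2e-06.

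Hnrnpd was called in total RNA and not in footprints. Total RNA of Hnrnpd in pools 1 and 2 was 11.9 and 10.7 RPKM at ZT0, 8.83 and 11.6 at ZT2, 13.8 and 11.6 at ZT4, 14.4 and 12.2 at ZT6, 15.2 and 14.2 at ZT8 and then 15.4 and 14.8 at ZT10. In the dark it was 13.8 and 15.2 RPKM at ZT12, 14.6 and 12.5 at ZT14, 11.8 and 8.69 at ZT16, 12.1 and 6.75 at ZT18, 8.35 and 10.9 at ZT20 and then 6.44 and 9.02 at ZT22. The 6 pools of ZT8 to ZT12 lay above the 8 pools of ZT16 to ZT22, and single pools of ZT4, ZT6 and ZT14 reached into the range of ZT8 to ZT12. The fitted fold was 1.73 (1.44 to 2.08), with the peak at ZT9.08 and a limma adjusted p of 0.00015. Its footprints were 25.4 and 20.2 RPKM at ZT0, 19.5 and 25.3 at ZT2, 29.8 and 25.5 at ZT4, 32.0 and 22.3 at ZT6, 28.9 and 27.2 at ZT8 and then 26.3 and 36.9 at ZT10. In the dark they were 34.6 and 27.6 RPKM at ZT12, 27.8 and 25.6 at ZT14, 21.1 and 17.5 at ZT16, 26.1 and 25.02 at ZT18, 24.9 and 22.7 at ZT20 and then 22.8 and 26.2 at ZT22. The 2 pools of ZT10 stood apart, at 26.3 and 36.9 RPKM, and the ranges of most time points overlapped. The fitted footprint fold was 1.3 (1.09 to 1.54), peaking at ZT9.19, which was under 1.5. Its limma adjusted p was 0.038, and 0.060 without the pancreatic pools. The ratio of footprints to total RNA of Hnrnpd had a fitted fold of 1.33 (1.03 to 1.71) with a limma adjusted p of 0.54 in the unpaired fit. Among all fits, including the one that pairs the assays by pool, the lowest was 0.206. A difference in rhythm between the assays was thus not shown.

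Hnrnpl binds CA-rich RNA and is known as a regulator of exon choice. In total RNA, the 2 pools held Hnrnpl at 51.1 and 47.3 RPKM at ZT0, 45.4 and 53.2 at ZT2, 47.5 and 53.8 at ZT4, 55.0 and 58.9 at ZT6, 50.9 and 51.6 at ZT8 and then 54.1 and 64.3 at ZT10. From ZT12 on, the pools had 46.8 and 47.3 RPKM at ZT12, 37.4 and 45.3 at ZT14, 29.2 and 31.0 at ZT16, 42.8 and 50.5 at ZT18, 40.0 and 37.0 at ZT20 and then 49.98 and 57.4 at ZT22. Both pools of ZT16 were below all others, and the rest of the day overlapped widely. The fitted total RNA fold of 1.42 (1.20 to 1.68), peaking at ZT5.17, had a limma adjusted p of 0.0047 and fell short of 1.5. Total RNA of Hnrnpl was called in 4 of 10 other settings, among them no minimum fold and the time point as a factor. It was called in 0 of the 24 fits that left out 1 pool. Footprint values of the 2 pools were 79.4 and 84.3 RPKM at ZT0, 72.8 and 77.4 at ZT2, 80.0 and 103 at ZT4, 96.9 and 81.6 at ZT6, 81.8 and 89.0 at ZT8 and then 97.1 and 80.4 at ZT10. Later they came to 82.4 and 79.6 RPKM at ZT12, 68.1 and 65.0 at ZT14, 56.7 and 53.2 at ZT16, 57.5 and 54.6 at ZT18, 59.4 and 57.7 at ZT20 and then 76.5 and 74.0 at ZT22. All 6 footprint pools of ZT16 to ZT20 lay below the other 18. The fitted footprint fold was 1.57 (1.40 to 1.77), with the peak at ZT5.89 and a limma adjusted p of 5.7e-06. The ratio of footprints to total RNA of Hnrnpl had a fold of 1.13 with an upper bound of 1.39 in the unpaired fit (limma adjusted p = 0.89). Its lowest limma adjusted p among all fits, the paired one included, was 0.559.

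Hnrnph3, a member of the group of hnRNPs that bind guanine tracts, had the lowest level of the 28 genes. Total RNA of Hnrnph3 in pools 1 and 2 was 4.75 and 4.11 RPKM at ZT0, 8.16 and 7.25 at ZT2, 5.46 and 4.87 at ZT4, 5.01 and 4.53 at ZT6, 4.65 and 4.15 at ZT8 and then 4.00 and 4.41 at ZT10. In the dark it was 3.27 and 3.28 RPKM at ZT12, 3.16 and 3.94 at ZT14, 1.57 and 3.14 at ZT16, 4.36 and 4.39 at ZT18, 3.94 and 3.39 at ZT20 and then 4.80 and 4.12 at ZT22. Both pools of ZT2 stood above the other 22, and the lowest, 1 pool of ZT16, was at 1.57 RPKM beside 3.14 in its partner. The fitted fold was 1.85 (1.45 to 2.38), with the peak at ZT2.97 and a limma adjusted p of 0.00093. Its footprints were 7.67 and 7.01 RPKM at ZT0, 10.1 and 8.49 at ZT2, 7.92 and 6.64 at ZT4, 6.62 and 6.04 at ZT6, 6.83 and 7.29 at ZT8 and then 5.14 and 5.07 at ZT10. In the dark they were 4.59 and 4.44 RPKM at ZT12, 6.19 and 4.66 at ZT14, 6.84 and 6.77 at ZT16, 8.17 and 7.61 at ZT18, 6.96 and 8.42 at ZT20 and then 6.78 and 7.37 at ZT22. The highest footprint values were again those of ZT2, and the lowest those of ZT10, ZT12 and 1 pool of ZT14. The footprint fold was 1.54 (1.31 to 1.81), with the peak at ZT23.6 and a limma adjusted p of 0.00048. Both pools of ZT2 were among those holding pancreatic transcripts. Without the 6 such pools the total RNA fold of Hnrnph3 was 1.60 with a limma adjusted p of 0.073, and the call was lost, while the footprint call was kept at 1.5-fold (adjusted p = 0.0022). Its smallest total RNA value rested on about 12 reads. The footprint fold lay close to 1.5 and slipped under it, to as little as 1.49, when 1 of 4 pools was left out: either pool of ZT12, the second of ZT14 or the first of ZT2.

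Hnrnpc binds uridine tracts of nascent RNA and keeps U2AF from cryptic exons. It was the 1 member called with a peak in the dark in total RNA. In total RNA, the 2 pools held Hnrnpc at 52.5 and 54.8 RPKM at ZT0, 62.6 and 47.9 at ZT2, 54.9 and 49.7 at ZT4, 51.3 and 41.4 at ZT6, 51.5 and 37.6 at ZT8 and then 38.9 and 47.4 at ZT10. From ZT12 on, the pools had 45.4 and 45.0 RPKM at ZT12, 58.8 and 53.2 at ZT14, 79.1 and 68.4 at ZT16, 78.8 and 79.5 at ZT18, 82.7 and 73.4 at ZT20 and then 52.9 and 49.4 at ZT22. All 6 pools of ZT16 to ZT20 lay above the other 18. The fitted fold was 1.64 (1.39 to 1.95), with the peak at ZT19.1 and a limma adjusted p of 0.00017. Footprint values of the 2 pools were 66.0 and 65.0 RPKM at ZT0, 74.6 and 70.5 at ZT2, 63.0 and 50.2 at ZT4, 56.0 and 52.3 at ZT6, 56.5 and 37.9 at ZT8 and then 38.1 and 54.5 at ZT10. Later they came to 46.8 and 39.4 RPKM at ZT12, 56.9 and 60.4 at ZT14, 59.7 and 63.8 at ZT16, 72.0 and 70.0 at ZT18, 77.2 and 76.7 at ZT20 and then 70.6 and 56.3 at ZT22. Footprints were highest at ZT20, and the pools of ZT2 reached 70.5 and 74.6 RPKM, inside the range of ZT18 to ZT20. The footprint fold was 1.59 (1.36 to 1.85), with the peak at ZT21.5 and a limma adjusted p of 0.00013. Its coding sequence shared 59.8% of 30-base windows with 3 pseudogenes.

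**Figure D2:**
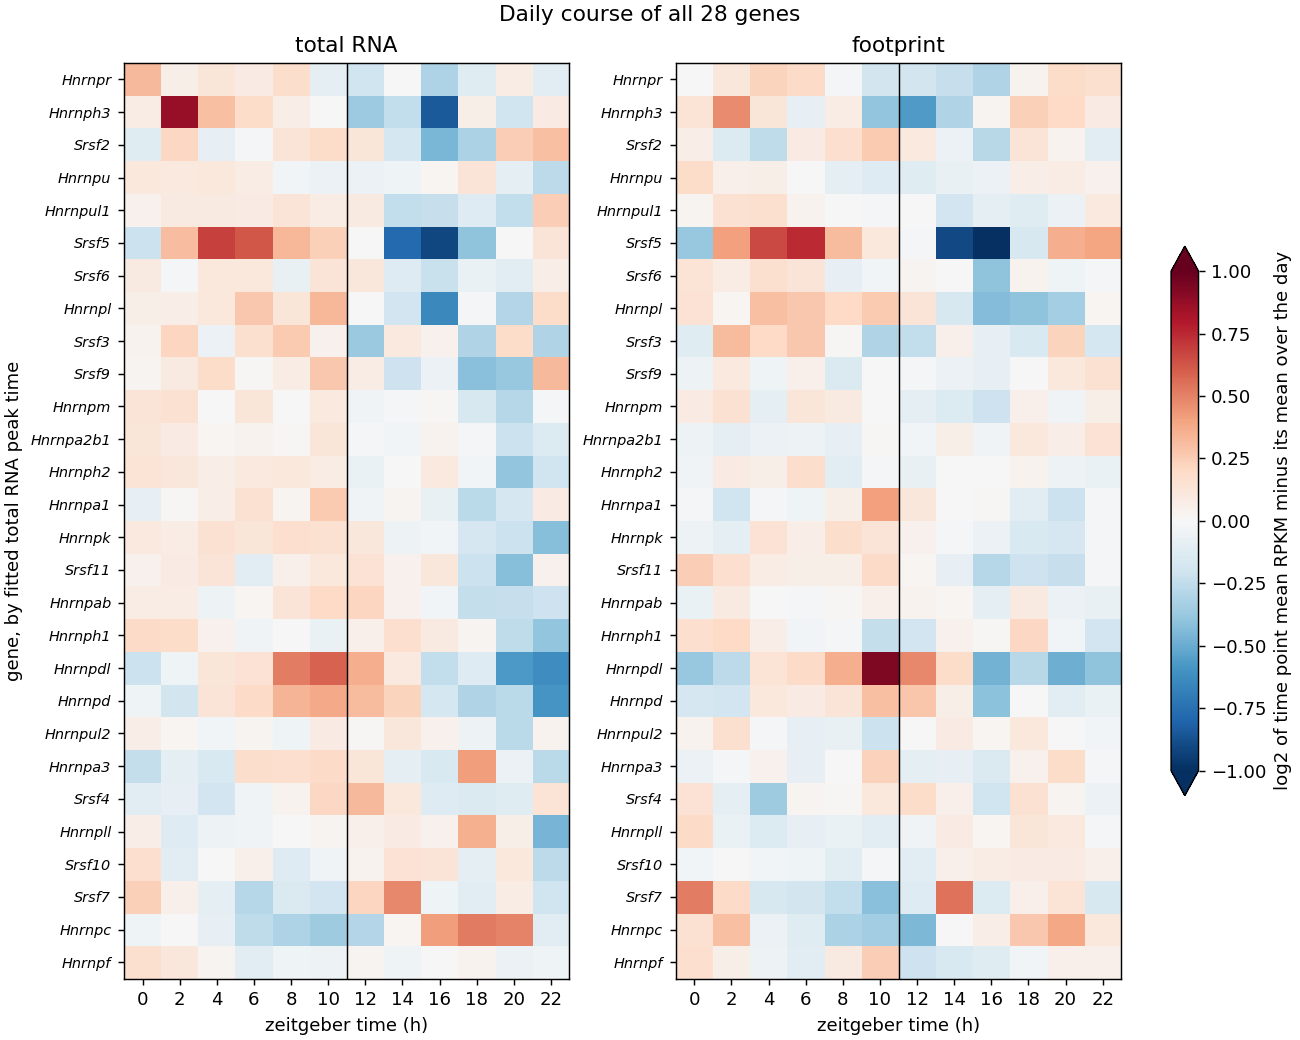
Daily course of all 28 genes in total RNA (left) and footprints (right), as log2 of the time point mean RPKM minus the gene's mean over the 12 time points, with genes ordered by fitted total RNA peak and a line at lights off. The colour scale ends at 1 on either side, and Srsf5 at ZT16 in footprints is the only cell beyond it; most other genes stay pale over the day.

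The other 22 members were not called in either assay by the 24 h cosine. Their fitted folds ran from 1.06 to 1.33 in total RNA and from 1.02 to 1.33 in footprints. At any fold, 11 members passed an adjusted p of 0.05 in total RNA (39.3%, against 43.1% of all genes) and 12 in footprints (42.9%, against 45.0%). Of the 11 in total RNA, 10 peaked in the light (35.7% of members, against 21.5% of all genes) and 1 in the dark (3.57%, against 21.6%). In footprints 8 peaked in the light (28.6% against 21.3%) and 4 in the dark (14.3% against 23.7%). With the time point taken as a factor, which needs no cosine shape, 10 members were called in total RNA (against 30.3% of all genes), Srsf9, Hnrnpk, Hnrnpl, Hnrnpll and Hnrnpr being added. In footprints 6 were called that way (against 22.8%), Srsf7 being added.

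Hnrnpk, a protein with KH domains that binds cytidine-rich RNA, was the most abundant member, at 172 ± 20.9 RPKM in total RNA and 245 ± 21.3 in footprints (SD, n = 24 pools). Its coding sequence shared 86.1% of 30-base windows with 3 pseudogenes, so this level and its rank are uncertain. Its daily range was small. The 4 total RNA pools of ZT8 and ZT10 held 178 to 203 RPKM, the 2 of ZT22 held 126 and 128, and the fitted fold was 1.33 (1.21 to 1.47; limma adjusted p = 0.00019). In footprints Hnrnpk had a fold of 1.21 (1.12 to 1.3), with the peak at ZT7.79. Hnrnpr and Hnrnpul1 also passed the adjusted p in both assays, Hnrnpr with folds of 1.27 in total RNA and 1.33 in footprints and Hnrnpul1 with 1.25 and 1.19. Of the 9 members past the adjusted p in both assays, 8 had fitted peaks within 3 h of each other, and Hnrnph3 peaked 3.34 h earlier in footprints. The footprint peak of Hnrnpc came 2.40 h after that of its total RNA.

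Among SR genes, Srsf5 alone passed the adjusted p in total RNA, and Srsf5 and Srsf11 did so in footprints (Srsf11 at 1.28-fold). The other SR genes, Srsf2, Srsf3, Srsf4, Srsf6, Srsf7, Srsf9 and Srsf10, had fitted folds of 1.06 to 1.33 in total RNA and 1.09 to 1.3 in footprints. Srsf7 is an SR protein with a zinc knuckle that also takes part in mRNA export. Its footprints were 40.2 and 41.6 RPKM at ZT0, 34.6 and 31.1 at ZT2, 21.97 and 29.4 at ZT4, 25.4 and 25.2 at ZT6, 26.7 and 21.7 at ZT8 and then 19.7 and 23.2 at ZT10. In the dark they were 25.01 and 27.6 RPKM at ZT12, 46.8 and 36.8 at ZT14, 29.0 and 23.4 at ZT16, 28.2 and 31.4 at ZT18, 29.9 and 33.1 at ZT20 and then 21.3 and 30.2 at ZT22. The values stood high at ZT0 and again at ZT14, a course that 1 cosine of 24 h does not describe. The 24 h fit of Srsf7 in footprints gave a limma adjusted p of 0.14, whereas the time point taken as a factor gave 0.0097 and 24 h and 12 h terms together gave 0.041. In total RNA of Srsf7 the factor gave a limma adjusted p of 0.0996. Among all fits of its total RNA the lowest limma adjusted p was 0.045, without a call at 1.5-fold. The highest time point mean in total RNA was also at ZT14, at 26.3 RPKM, and the pools of ZT0 held 22.8 and 21.7. The lowest time point mean was 15.5 RPKM at ZT6. For the difference between the assays, the factor called 0 members, against 39 of all 9445 genes. The limma adjusted p of Srsf7 for that difference was at least 0.187 in every fit.

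**Figure D3:**
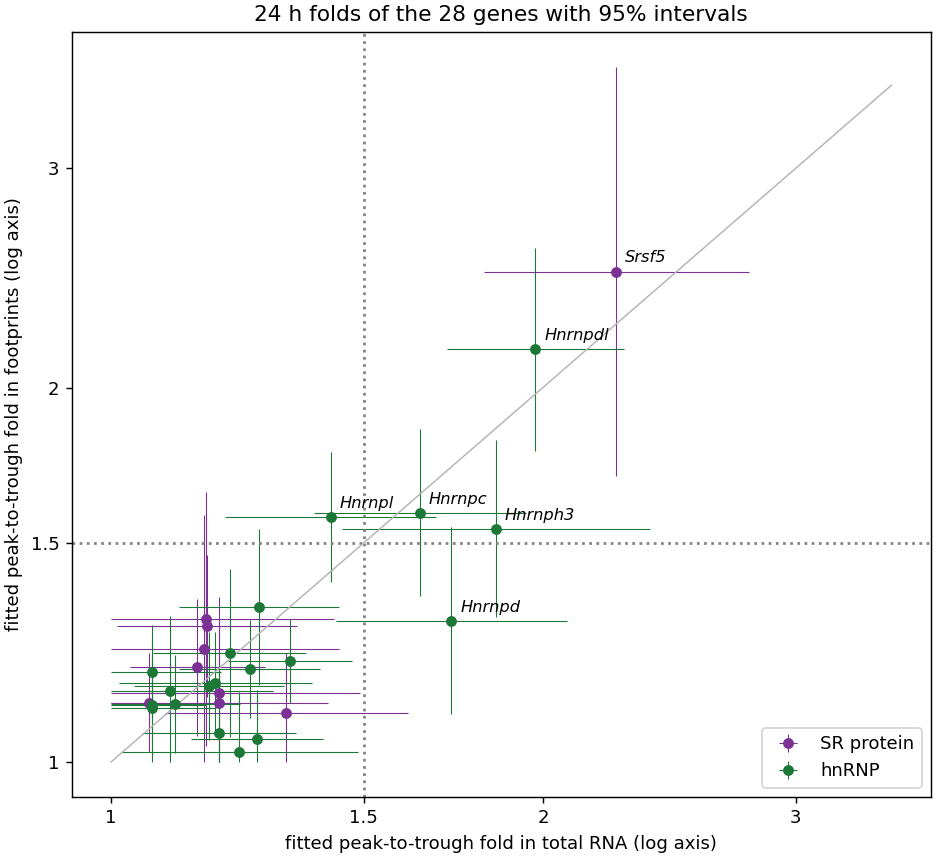
Fitted peak-to-trough fold in total RNA (horizontal, log axis) against that in footprints (vertical, log axis) for the 28 genes, with 95% intervals, a diagonal of equal folds and dotted lines at 1.5-fold. The 6 named genes are those called in at least 1 assay; Srsf5 lies at 2.25 and 2.48, and 22 genes lie under 1.5 on both axes.

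The next question was whether the efficiency of translation, the ratio of footprints to total RNA, changed over the day. No member was called, in the fit that treats libraries as unpaired (0 of 28, against 0.275% of all genes) or in the fit with the pool as a block (0 of 28, against 1.08%). Fitted folds of the ratio ran from 1.07 to 1.61 and the lowest limma adjusted p was 0.24, for Hnrnph3, so 0 passed it at any fold (against 0.371% of all genes). At an unadjusted p under 0.05 there were 5 members (17.9%, against 11.0% of all genes): Srsf9, Hnrnpa2b1, Hnrnpab, Hnrnpc and Hnrnph3. With the block there were 11 (39.3%, against 21.9%). Hnrnpc passed the adjusted p with the block at less than 1.5-fold (1.35-fold, peak at ZT2.71, limma adjusted p = 0.036), as 3.23% of all genes did at any fold. The interval that reached farthest, that of Hnrnph3, went from 1.20 to 2.15. Total RNA and footprint fits of a gene share their pools, and a call in one assay alone does not show that the assays differ.

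The level of translation efficiency over the whole day ranged from -1.20 for Hnrnpul1 to 2.07 for Hnrnpa3. Efficiency is given as the log2 footprint to total RNA ratio of a gene minus that of the median gene, averaged over 24 pools, and it was called with limma at an adjusted p under 0.05 and at least 1.5-fold. By this measure 9 of 28 members were higher than the median gene (32.1%, against 18.8% of all genes) and 1 was lower (3.57%, against 24.6%). At any fold 20 members were higher (71.4%, against 42.0%) and 4 lower (14.3%, against 43.1%). The median over the members was 0.39, or 1.31-fold, and 22 of the 28 lay above the median gene. The higher genes were Hnrnpa3, Hnrnpd, Srsf2, Hnrnph3, Hnrnpl, Hnrnpa2b1, Srsf7, Hnrnpk and Hnrnpm, and the lower gene was Hnrnpul1.

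**Figure D4:**
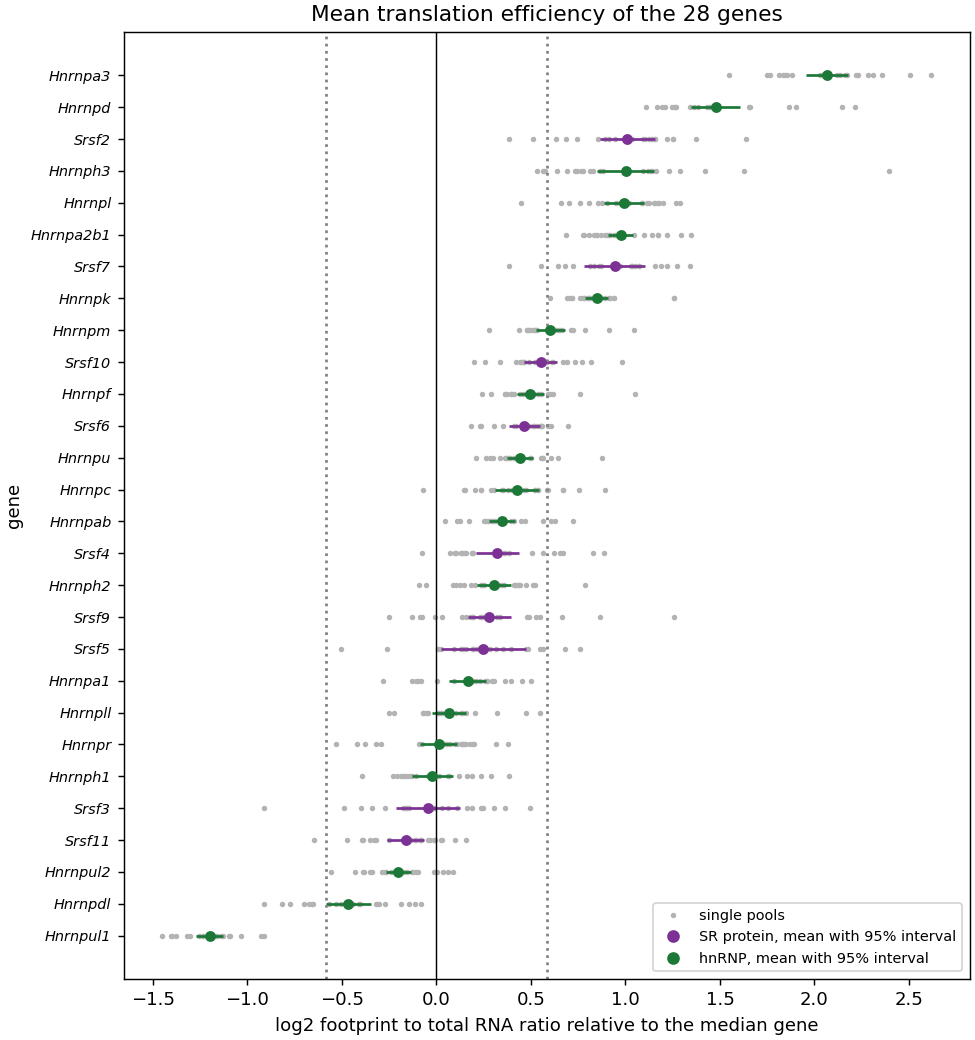
Log2 footprint to total RNA ratio relative to the median gene (horizontal axis) for the 28 genes, with grey points for the 24 pools, coloured points for the mean with its 95% interval, a line at the median gene and dotted lines at 1.5-fold. Hnrnpa3 stands at 2.07 and Hnrnpul1 at -1.20, each with all 24 pools on its side of the median gene.

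Hnrnpa3, a relative of Hnrnpa1 and Hnrnpa2b1 that binds telomeric and trafficking signals in nucleic acid, was the highest. Log2 efficiency of Hnrnpa3 in pools 1 and 2 was 2.31 and 2.17 at ZT0, 2.22 and 2.06 at ZT2, 2.28 and 2.23 at ZT4, 1.84 and 1.76 at ZT6, 1.75 and 2.04 at ZT8 and then 2.03 and 2.16 at ZT10. In the dark phase it was 1.81 and 1.88 at ZT12, 2.05 and 2.12 at ZT14, 1.86 and 2.36 at ZT16, 1.84 and 1.55 at ZT18, 2.04 and 2.62 at ZT20 and then 2.50 and 2.14 at ZT22. Every pool was above the median gene, from 1.55 at ZT18 to 2.62 at ZT20. The mean was 2.07 (1.96 to 2.18), or 4.19-fold above the median gene (limma adjusted p = 1.4e-34), higher than 99.6% of all genes. The coding sequence of Hnrnpa3 shared 97.7% of 30-base windows with 51 other genes, 47 of them pseudogenes, so both its levels are uncertain.

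Hnrnpd was the next, at 1.48 (1.35 to 1.60; 2.78-fold; limma adjusted p = 3.9e-26), above 98.1% of all genes and above the median gene in 24 of 24 pools. Its pools ran from 1.11 to 2.21, and 14.2% of its coding windows were shared. Its neighbour Hnrnpdl lay on the other side, at -0.47 (-0.59 to -0.35; limma adjusted p = 8.8e-10), below the median gene in 24 of 24 pools, which was 1.38-fold lower and short of the 1.5-fold needed for a call. The pools of Hnrnpdl ran from -0.91 to -0.08 and did not reach those of Hnrnpd. Of the coding windows of Hnrnpdl, 22.7% were shared with 1 pseudogene. The 2 related neighbours thus shared the phase of their total RNA and stood far apart in the ratio of footprints to total RNA of the gene.

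Srsf2, known as SC35 and as a mark of nuclear speckles, was the highest SR gene. For Srsf2 the pools had a log2 efficiency of 1.25 and 1.14 at ZT0, 0.91 and 0.51 at ZT2, 0.68 and 0.99 at ZT4, 1.12 and 1.09 at ZT6, 1.14 and 0.95 at ZT8 and then 1.15 and 1.03 at ZT10. From lights off it was 0.89 and 1.10 at ZT12, 1.38 and 0.85 at ZT14, 1.22 and 1.16 at ZT16, 1.25 and 1.64 at ZT18, 1.01 and 0.63 at ZT20 and then 0.38 and 0.75 at ZT22. All pools were above the median gene and spread over more than 1 log2 unit. Of the coding windows of Srsf2, 41.0% were shared with 1 annotated protein-coding gene that overlaps it. The mean was 1.01 (0.86 to 1.16; 2.01-fold; limma adjusted p = 1.8e-17). Srsf7 followed among SR genes at 0.94 (0.78 to 1.10), and the remaining 7 SR genes were not called, from Srsf10 at 0.55 to Srsf11 at -0.16. Srsf10 shared 85.5% of its coding windows with other genes, so its level is uncertain.

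Hnrnpul1, a nuclear protein of the group of Hnrnpu that takes part in mRNA export and the response to DNA breaks, was the only member called lower. Log2 efficiency of Hnrnpul1 in pools 1 and 2 was -1.18 and -1.23 at ZT0, -1.25 and -1.03 at ZT2, -1.14 and -1.13 at ZT4, -1.32 and -1.16 at ZT6, -1.19 and -1.45 at ZT8 and then -1.40 and -1.17 at ZT10. In the dark phase it was -1.40 and -1.18 at ZT12, -1.10 and -1.18 at ZT14, -0.91 and -1.23 at ZT16, -1.18 and -1.20 at ZT18, -0.93 and -1.09 at ZT20 and then -1.30 and -1.38 at ZT22. The 24 pools lay close together, all below the median gene. The mean was -1.20 (-1.27 to -1.13), or 2.29-fold lower (limma adjusted p = 6.9e-33), and 9.2% of all genes were lower still. Hnrnpul1 held 33.1 ± 3.92 RPKM in total RNA and 11.3 ± 1.05 in footprints (SD, n = 24 pools). Its relative Hnrnpul2 held 34.8 ± 2.76 RPKM in total RNA and 23.95 ± 1.78 in footprints. Hnrnpul2 was the third lowest. For Hnrnpul2 the pools had a log2 efficiency of -0.22 and -0.24 at ZT0, -0.11 and 0.00 at ZT2, -0.27 and -0.10 at ZT4, -0.27 and -0.34 at ZT6, -0.13 and -0.35 at ZT8 and then -0.56 and -0.43 at ZT10. From lights off it was -0.01 and -0.38 at ZT12, -0.29 and -0.17 at ZT14, -0.23 and -0.22 at ZT16, 0.06 and -0.15 at ZT18, 0.09 and 0.04 at ZT20 and then -0.12 and -0.39 at ZT22. Its mean of -0.20 (-0.27 to -0.13; limma adjusted p = 4.4e-07) was not called, with 20 of 24 pools below the median gene. Hnrnpu itself, the scaffold attachment factor, had a mean of 0.44.

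Among the other hnRNPs, Hnrnph3 (1.00), Hnrnpl (0.99), Hnrnpa2b1 (0.97), Hnrnpk (0.85) and Hnrnpm (0.60) were called higher with 24 of 24 pools above the median gene. Hnrnpm lies at the edge of the 1.5-fold limit and lost its call without the first pool of ZT18. Hnrnpf, Hnrnph2, Hnrnpab, Hnrnpc and Hnrnpa1 had means of 0.17 to 0.50 and passed the adjusted p without reaching 1.5-fold. Hnrnpr, Hnrnph1, Hnrnpll and Srsf3 had means of -0.05 to 0.07 and missed the adjusted p. Shared coding windows came to 97.8% in Hnrnpf, 94.2% in Srsf3, 85.6% in Hnrnpa1 and 71.9% in Hnrnph2, so their levels are uncertain. Because many of these genes share sequence with pseudogenes, members were also split by coding windows shared with any other annotated gene. In Srsf2, Srsf4 and Hnrnpul2 the windows were shared with 1 overlapping gene and with no pseudogene. The median efficiency was 0.35 for the 11 members with under 10% of windows shared, 0.43 for the 17 others and 0.36 for the 6 with none. Called higher were 3 of those 11, 6 of those 17 and 1 of those 6, against 18.8% of all genes. Called lower were 1, 0 and 0, against 24.6%. Whether shared sequence bears on these values was not tested.

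Genes that act with both families were read from lists chosen with earlier results of these data known. The rhythm calls compare with 15.8% of all genes for total RNA and 16.7% for footprints. Of 9 kinases and import receptors of SR proteins tested, 1 was called in each assay, Clk4, which phosphorylates SR proteins. Clk4 had folds of 1.51 in total RNA (peak at ZT11.6) and 1.64 in footprints (peak at ZT13.9). All 9 lay below the median gene in efficiency, 5 of them called lower (against 24.6% of all genes), with a median of -0.73. The median of the 28 members was 0.39, and the difference between these lists was not tested.

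Of 22 SR-related proteins, 4 passed as rhythmic in total RNA and 5 in footprints, and all of those peaked in the dark. Of all genes, 8.06% and 9.05% were called with a peak in the dark. Rbm25, Tra2a and Tra2b passed in both assays, Srek1ip1 in total RNA and Luc7l and Srek1 in footprints. Tra2a, a splicing activator related to SR proteins, had the widest fitted range of the list, 2.69-fold in total RNA with the peak at ZT20.4 and 3.14-fold in footprints with the peak at ZT21.1. Its partner Tra2b had 1.56-fold and 1.79-fold, with peaks at ZT20.8 and ZT20.5. Both thus peaked near Hnrnpc and far from Srsf5. In efficiency 5 of the 22 were called lower (24.6% of all genes) and 3 higher (18.8%), with a median of -0.08.

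Of 27 other RNA-binding proteins of hnRNP complexes, 3 were called in total RNA (15.8% of all genes), 4 in footprints (16.7%) and 3 in both (11.0%). Among them were Sfpq and Tardbp in both assays and Ptbp2 in footprints. Tardbp had folds of 1.52 in total RNA and 2.02 in footprints, and Sfpq 1.53 and 1.5. In efficiency 8 of the 27 were called higher (18.8% of all genes) and 0 lower (24.6%), with a median of 0.36. Of 24 spliceosome proteins of the U1 and U2 particles and the 3′ splice site, 1 (Snrpa, of the U1 particle) was called in total RNA and 0 in footprints. At any fold, 10 of the 24 passed the limma adjusted p of 0.05 in footprints (45.0% of all genes), and the widest footprint fold of the list was 1.43. In efficiency 15 were called higher (18.8% of all genes), with a median of 0.69. Of 10 nonsense-mediated decay factors, 1 (Smg9) was called in total RNA and 0 in footprints. At any fold, 5 of the 10 passed the limma adjusted p of 0.05 in footprints (45.0% of all genes), and their list reached 1.39-fold at most. Their median efficiency was -0.58, with 5 called lower (24.6% of all genes) and 1 higher (18.8%). No gene of the 5 lists was called rhythmic in efficiency with limma without the block. At an unadjusted p under 0.05 there were 1 of 9, 3 of 22, 5 of 27, 3 of 24 and 0 of 10 in the order given, against 11.0% of all genes. With the block, 0, 1, 1, 1 and 0 were called, against 1.08% of all genes, and Srek1 and Sf3b4 were among them. These list genes outside the members were picked by their calls.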

How the data were processed

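Total RNA and ribosome footprints were measured in 24 liver lysate pools. The authors deposited RPKM values per Ensembl gene, a table for each library. The submitters' processing notes name Cufflinks 2.2.1, TopHat2 2.0.11, Bowtie2 2.2.1, edgeR, cutadapt and CASAVA 1.82 as tools, and GRCm38.p2 and mm10 as builds. Their roles, the gene models and the treatment of reads with several matches are not stated there. Because reads of near-identical copies could be split or lost, shared coding windows of 30 bases were counted.

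Symbols and coordinates came from GENCODE M21 (GRCm38), promoters from RefSeq (GRCm38.p6). Values were fitted as log2(RPKM + 0.1) with limma 3.58.1 in R 4.3.3, for the 9445 genes that averaged 1 RPKM or more in each assay. Folds are on that scale, which understates changes of low genes. The models were a 24 h cosine per assay, an assay by cosine interaction for the efficiency rhythm, and an assay term, centred on the median gene, for mean efficiency. Calls needed a Benjamini-Hochberg adjusted p under 0.05 over all genes and 1.5-fold. The fits were tested on simulated data with independent noise in each library and rhythms added to footprints alone. Pools shared by the assays and pools holding pancreatic transcripts were not simulated.

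Both assays of a pool came from 1 lysate. Their deviations from the group means correlated with r of 0.160 to 0.683, over 0.1 at 12 of 12 time points, so the numbers pair the samples. Depth was estimated from steps in RPKM times coding length (whole multiples in 67.5% to 83.8% of low values, tolerance 0.04 of a step, where chance gives 8%), so it is approximate. All members are accounted for; values at every time point are given for members called rhythmic and for the 3 highest and 3 lowest efficiencies. Srsf7 and Hnrnpk are described outside that rule, after their values were seen. Of the list of other RNA-binding proteins of hnRNP complexes, 1 gene is counted and not reported by name here. Members, lists and tests were chosen with earlier results of these data known. Alternatives were other pseudocounts, filters and scaling, no minimum fold, the time point as a factor, added 12 h terms, the replicate block, and leaving out single pools, the pools holding pancreatic transcripts (summed enzymes over 10 times the median pool in both assays) or the shallow pools.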

Additional observations from a re-analysis of the deposited data

How the results depend on the processing

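Under other pseudocounts, another scaling and with single pools left out, the counts of members called stayed within 1.5 times of those reported. Leaving out 1 pool gave 5 to 5 members in total RNA (all genes 1415 to 1625), 4 to 5 in footprints (1497 to 1666), 0 to 0 for the efficiency rhythm (13 to 39, against 26 with all pools), 8 to 9 higher in mean efficiency (1753 to 1780) and 1 to 1 lower (2322 to 2345). The efficiency count fell by over 1.5 times without the first pool of ZT4, ZT18 or ZT20 or the second of ZT2, ZT6, ZT8 or ZT18. At a mean of at least 5 RPKM, the calls were 903 genes for total RNA, 971 for footprints and 43 for the efficiency rhythm; 2 members were lower in mean efficiency, Hnrnpdl being added, with 910 genes higher and 1259 lower, since fewer genes were tested and the median gene moved. Without a minimum fold, total RNA gave 11 members and 4072 genes, footprints 12 and 4253, and 20 members higher and 4 lower in mean efficiency, with 3965 and 4068 genes. The time point as a factor called 10 members and 2863 genes in total RNA. Added 12 h terms called 2382 genes in total RNA and 56 for the efficiency rhythm; the cause was not tested. For the efficiency rhythm, the replicate block called 102 genes, the pools without pancreatic transcripts 0, the block on those pools 2, and the set without shallow pools 2 (the last 2 settings were chosen after seeing the data). No member was called for the efficiency rhythm in any of these, and the block changed no other member's call. Mean efficiency changed sign only for members that were not called: Hnrnpr at a pseudocount of 1 (-0.014), Srsf3 (0.031) and Hnrnph1 (0.056) with no filter, and at a mean of at least 5 RPKM Hnrnpa1 (-0.015), Hnrnpll (-0.11) and Hnrnpr (-0.17). Leaving out 1 pool moved Hnrnpr between -0.0027 and 0.033. Hnrnph3 in footprints was also lost at a pseudocount of 1, and Hnrnpm in mean efficiency at a pseudocount of 1, at 5 RPKM and without the shallow pools. The depth of total RNA, lowest at 3.87 M reads, limits the low genes most.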
